A study of Mus musculus with 10 samples.

Results

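Chromatin accessibility was examined by ATAC-seq around 10 genes that drive or restrain the passage of cells through G1, the phase before DNA replication. The 6 drivers were Cdk4, Cdk6, Ccnd1, Ccnd2, Ccnd3 and E2f2, and the 4 brakes were Cdkn1a, Cdkn1b, Cdkn2c and Btg2. They are 10 of 21938 annotated protein-coding genes (GENCODE M21), and were chosen by name, with earlier results of these data known. Every peak summit from 50 kb upstream to 50 kb downstream of a gene's annotated span was taken, which gave 80 of the 28981 merged regions of the series, 55 around the drivers and 25 around the brakes. A region here is a stretch of overlapping 501-bp windows centred on the summits of all lists.

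The cells were G1E-ER4 (called G1ER), a Gata1-null mouse erythroid line that is a subclone of G1E cells and constitutively expresses GATA1 fused to the ligand-binding domain of the estrogen receptor. All groups therefore lacked endogenous GATA1, carried the GATA1-ER transgene and grew with stem cell factor and erythropoietin. Undifferentiated cells (0 h) were compared with cells exposed to β-estradiol at 1e-07 M for 2, 6, 12 and 24 h, which activates GATA1-ER, with about 50000 cells per library and 2 libraries at each time. The data come from 1 subclone of a cell line. The study describes the ATAC-seq replicates as independent experiments, and the sample labels give no more than a replicate number.

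The lists held 10698 to 19859 peaks each, at 24 h replicate 2 and 6 h replicate 2, and 146939 in all. Each peak carries a score, −log10 of its q-value in its own library, which is not scaled between libraries. It was therefore read as a percentile within its list, where 100 is the highest score. Values of a region are given by time (0, 2, 6, 12 and 24 h), replicate 1 before replicate 2. Statements that both libraries of a time ranked above or below both 0 h libraries are untested descriptions, made for some regions only. No share over all regions is given for them, and 2 against 2 libraries cannot give an exact p under 0.333, so they do not show a change. Read depth is unknown, and an absent region means only that no peak was called. In bulk cells, a weaker peak in every cell and a peak in fewer cells cannot be told apart. Of 11 erythroid and progenitor marker genes, Epor and Nfe2 had a promoter peak in all 10 libraries, Kit in 9, Klf1 in 4, Tal1 in 2 and Gata1 and Hbb-bs in 1, whereas Gata2, Alas2, Slc4a1 and Hba-a1 had none. Of the markers of other lineages, Cd3e, Alb, Myod1 and Neurod1 had no promoter peak in any library.

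D-type cyclins (Ccnd1, Ccnd2, Ccnd3) bind and activate the kinases CDK4 and CDK6, which phosphorylate the retinoblastoma protein and so release E2F transcription factors to switch on genes of DNA replication. The brakes act at several points. The CIP/KIP proteins p21 (Cdkn1a) and p27 (Cdkn1b) bind cyclin and CDK complexes, the INK4 protein p18 (Cdkn2c) binds CDK4 and CDK6, and BTG2 is an antiproliferative cofactor of transcription and mRNA decay. Terminal erythroid maturation ends with exit from the cell cycle, in which cyclin D3 is known to set the number of the last divisions and E2F2 to take part in leaving the cycle. Despite this role, E2f2 was counted among the drivers here, and driver results include it unless stated.

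The sequences below are the 3 distal regions that were gained or lost, the highest-ranking distal region present in all libraries around a driver and around a brake, and the segment just upstream of the Cdk4 start, which is the highest-ranking promoter of the set. They were read from the GRCm38.p6 (mm10) reference of RefSeq, plus strand, as the 201 bases centred on the highest summit of a region or the 200 bases before the first Cdk4 start. Capitals mark the words searched on both strands, which were the GATA words AGATAA and TGATAA, the E2F words TTTCCCGC and TTTGGCGC and the E-box CACGTG. The E2f2 −24.6 kb region (chr4:136147695-136147895) was lost and the E2f2 −8.7 kb region (chr4:136163619-136163819) gained. The Ccnd3 +73.9 kb region (chr17:47578806-47579006) was gained. The Ccnd3 +31.0 kb region (chr17:47535911-47536111) and the Cdkn1a +20.7 kb region (chr17:29111617-29111817) were present throughout, and the Cdk4 segment is chr10:127063334-127063533.
E2f2 −24.6 kb: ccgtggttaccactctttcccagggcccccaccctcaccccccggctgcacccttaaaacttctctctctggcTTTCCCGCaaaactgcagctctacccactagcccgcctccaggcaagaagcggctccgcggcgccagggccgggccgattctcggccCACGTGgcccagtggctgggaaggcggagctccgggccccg
E2f2 −8.7 kb: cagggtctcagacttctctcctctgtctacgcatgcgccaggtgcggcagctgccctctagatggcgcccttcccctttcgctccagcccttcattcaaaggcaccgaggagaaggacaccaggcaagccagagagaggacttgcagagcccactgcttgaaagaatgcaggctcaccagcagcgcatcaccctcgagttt
Ccnd3 +73.9 kb: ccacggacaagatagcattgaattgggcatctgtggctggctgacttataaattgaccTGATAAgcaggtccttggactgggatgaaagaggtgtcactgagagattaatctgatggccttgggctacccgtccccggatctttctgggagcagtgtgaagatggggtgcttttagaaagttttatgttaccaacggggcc
Ccnd3 +31.0 kb: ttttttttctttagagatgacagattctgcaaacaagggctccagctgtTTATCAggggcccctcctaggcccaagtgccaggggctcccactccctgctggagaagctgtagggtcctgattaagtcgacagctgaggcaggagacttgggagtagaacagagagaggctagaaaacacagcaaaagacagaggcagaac
Cdkn1a +20.7 kb: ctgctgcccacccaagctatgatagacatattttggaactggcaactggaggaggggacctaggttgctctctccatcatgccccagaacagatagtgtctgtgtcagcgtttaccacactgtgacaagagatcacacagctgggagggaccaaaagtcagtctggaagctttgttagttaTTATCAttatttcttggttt
Cdk4 upstream: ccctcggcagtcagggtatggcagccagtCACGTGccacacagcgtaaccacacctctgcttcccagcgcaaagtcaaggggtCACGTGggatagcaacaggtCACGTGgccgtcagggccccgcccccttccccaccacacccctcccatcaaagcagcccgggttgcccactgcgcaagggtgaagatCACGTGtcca
The Cdk4 segment holds 4 E-boxes, CACGTG being the word read by MYC and USF proteins. In the 201 bases centred on the Cdk4 summit there were 3, a number reached by 8 of all 10025 promoter regions (0.0798%), and at least 1 lay in 7.51% of them. This word was added to the search after the sequence had been seen. The Ccnd3 +73.9 kb, Ccnd3 +31.0 kb and Cdkn1a +20.7 kb regions each hold 1 GATA word. The E2f2 −24.6 kb region holds 1 E2F word and 1 E-box and no GATA word, and 68.7% of its bases are G or C. None of the searched words was found in the E2f2 −8.7 kb sequence.

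Over all 52 distal regions around the 10 genes, 17 (32.7%) held a GATA word in the 201 bases around the highest summit, beside 38.1% of all 18956 distal regions of the series. An E2F word was found in 1 of the 52 (1.92%), the E2f2 −24.6 kb region itself, beside 0.454% of all distal regions. Among the 28 promoter regions around the 10 genes, 2 (7.14%) held an E2F word, beside 2.07% of all promoter regions, and 2 (7.14%) a GATA word, beside 7.29%. Both regions with an E2F word were promoters of neighbouring genes, Faf1 and Gpr19. Of the 14 own-promoter regions, 0 held an E2F word. The ETS word CCGGAAG was in 0 of the 80 regions, while 14.03% of all promoter regions and 1.62% of all distal regions held it. A word match is a description of the sequence and does not show that a factor was bound.

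Whether each gene had an accessible promoter was asked first, counting a summit within 1 kb of any annotated start of the gene. Cdk4, Ccnd2, Ccnd3 and Btg2 had one in all 10 libraries, which is 4 of 10 genes, beside 26.4% of 21853 gene names with a coding transcript start. Cdkn2c had one in 9 libraries, Cdkn1b in 8, Cdkn1a in 4, Cdk6 in 3 and E2f2 in 1. Ccnd1 alone had none, beside 55.5% of all genes. Between 3 and 5 of the 6 drivers and between 2 and 4 of the 4 brakes had an own-promoter peak in a given library. At 24 h both libraries had it at 2 brakes, and at 0 h the libraries had it at 4 and 3. Of the 2 missing at 24 h, Cdkn1a had its promoter peak in 1 of 2 libraries at 0 h, and the other was Cdkn2c in replicate 1 and Cdkn1b in replicate 2. The lists held 15573 and 10698 peaks at 24 h and 15258 and 11698 at 0 h. No share over all genes is given by library, so these counts cannot be set against the series. With each list reduced to its 10698 highest-scoring peaks, only Cdk4 kept a promoter peak in all 10 libraries, with Btg2 and Cdkn2c in 9, Ccnd3 in 8 and Ccnd2 in 7. Counted within 2 kb of a start, Cdkn1a had a peak in 9 libraries, both 24 h libraries among them, through an intron region 1.82 kb from its nearest start (chr17:29095303-29095932, percentiles from 32.9 to 60.4, absent at 0 h replicate 2), and no other gene gained or lost a library. Counted within 500 bp of a start, Ccnd2 had a promoter peak in 9 libraries, and 3 genes had one in all 10. At 1 kb and without 24 h replicate 1, Cdkn2c joined the 4 genes with a promoter peak in every library.

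Among the drivers, the Cdk4 promoter ranked highest. Its summit lay 0.069 kb upstream of the first of 4 annotated starts (region chr10:127063150-127063769), and its percentiles were, in time order, 99.5 and 99.4, then 84.5 and 99.6, 96.6 and 99.8, 81.8 and 99.4 and lastly 90.1 and 97.6. The peak stayed at 81.8 or above in every list, and replicate 2 was the higher library at 4 of 5 time points. At 12 and 24 h both libraries ranked below both 0 h libraries, by little at 12 h replicate 2 (99.36 against 99.43 at 0 h replicate 2). The 10 summits fell within 119 bp of each other.

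The Ccnd2 promoter (chr6:127151617-127152956) was also called in all libraries but ranked low and varied widely. Its percentiles were, in time order, 20.9 and 10.2, then 55.3 and 56.0, 10.1 and 58.2, 4.54 and 35.8 and lastly 77.9 and 33.2. Both libraries at 2 h and at 24 h ranked above both 0 h libraries, whereas at 6 and 12 h the ranges overlapped. The 11 summits of this region were spread over 839 bp, so its values need not come from the same summit. A second Ccnd2 promoter region, 1.15 kb downstream of the gene start and beside 3 later starts, was called at 6 h replicate 2 only, at percentile 8.09.

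Ccnd3 has 15 annotated coding starts, 8 at the 5′ end of a 94.6-kb span and 7 some 90 kb further in. No library had a summit within 1 kb of any of the 5′ starts, the nearest being 2.79 kb away. The internal starts had 2 regions. The one at +88.5 kb (chr17:47593077-47593827) was called in 8 libraries, at percentiles from 10.6 to 73.8, and was absent at 12 h replicate 1 and 24 h replicate 1. The one at +90.8 kb (chr17:47595344-47596323) was also called in 8, from 3.34 to 72.0, and was absent at 6 h replicate 2 and 12 h replicate 2. Each library had at least 1 of them, although neither was present in every list.

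Cdk6, E2f2 and Ccnd1 had few or no promoter peaks. At Cdk6, one region (chr5:3344106-3344850) was called at 0 h replicate 1 and 6 h replicate 2, at percentiles 45.1 and 16.4, and another (chr5:3343525-3344025) at 24 h replicate 2, at 58.2. The E2f2 promoter was called at 6 h replicate 2 alone, at percentile 12.9 in the longest list. The nearest summit to the Ccnd1 start was 2.17 kb away, in an intron of the gene, in 12 h replicate 1 at percentile 2.70.

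Among the brakes, Btg2 had the highest promoter ranks. Its percentiles (chr1:134078828-134079550) were, in time order, 86.1 and 5.45, then 73.1 and 53.7, 84.6 and 90.5, 73.4 and 85.1 and lastly 70.4 and 85.5. The 0 h replicate 2 value lay far below the other 9, so the mean of 45.8 ± 57.02 (SD, n = 2) at 0 h spans the means of 63.4 to 87.6 at the later times. A second Btg2 region, 0.808 kb inside the gene, was called at 12 h replicate 1 only, at percentile 11.0.

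The main Cdkn2c promoter (chr4:109666654-109667257) had percentiles of 60.1 and 68.8, then 67.3 and 38.9, 29.6 and 92.2, 64.1 and 77.2 in time order, and 44.7 in the 24 h library that had it. The Cdkn1b promoter (chr6:134919974-134920777) was lower, with 21.2 and 34.4 at 0 h, then 37.9 and 35.2 (6 h) and 51.3 and 55.1 (12 h), and was called in 1 library each at 2 h (33.7) and 24 h (30.7). Both 12 h libraries thus ranked above the other 6 that had a Cdkn1b promoter peak, and both 6 h libraries above both 0 h libraries. At Cdkn1a no library had a summit within 1 kb of the first start. The region beside the second start (chr17:29093419-29093984) was called at 0 h replicate 1 (35.2), 2 h replicate 2 (23.1), 6 h replicate 2 (68.9) and 12 h replicate 2 (33.3), in no more than 1 library of a time point.

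**Figure D1:**
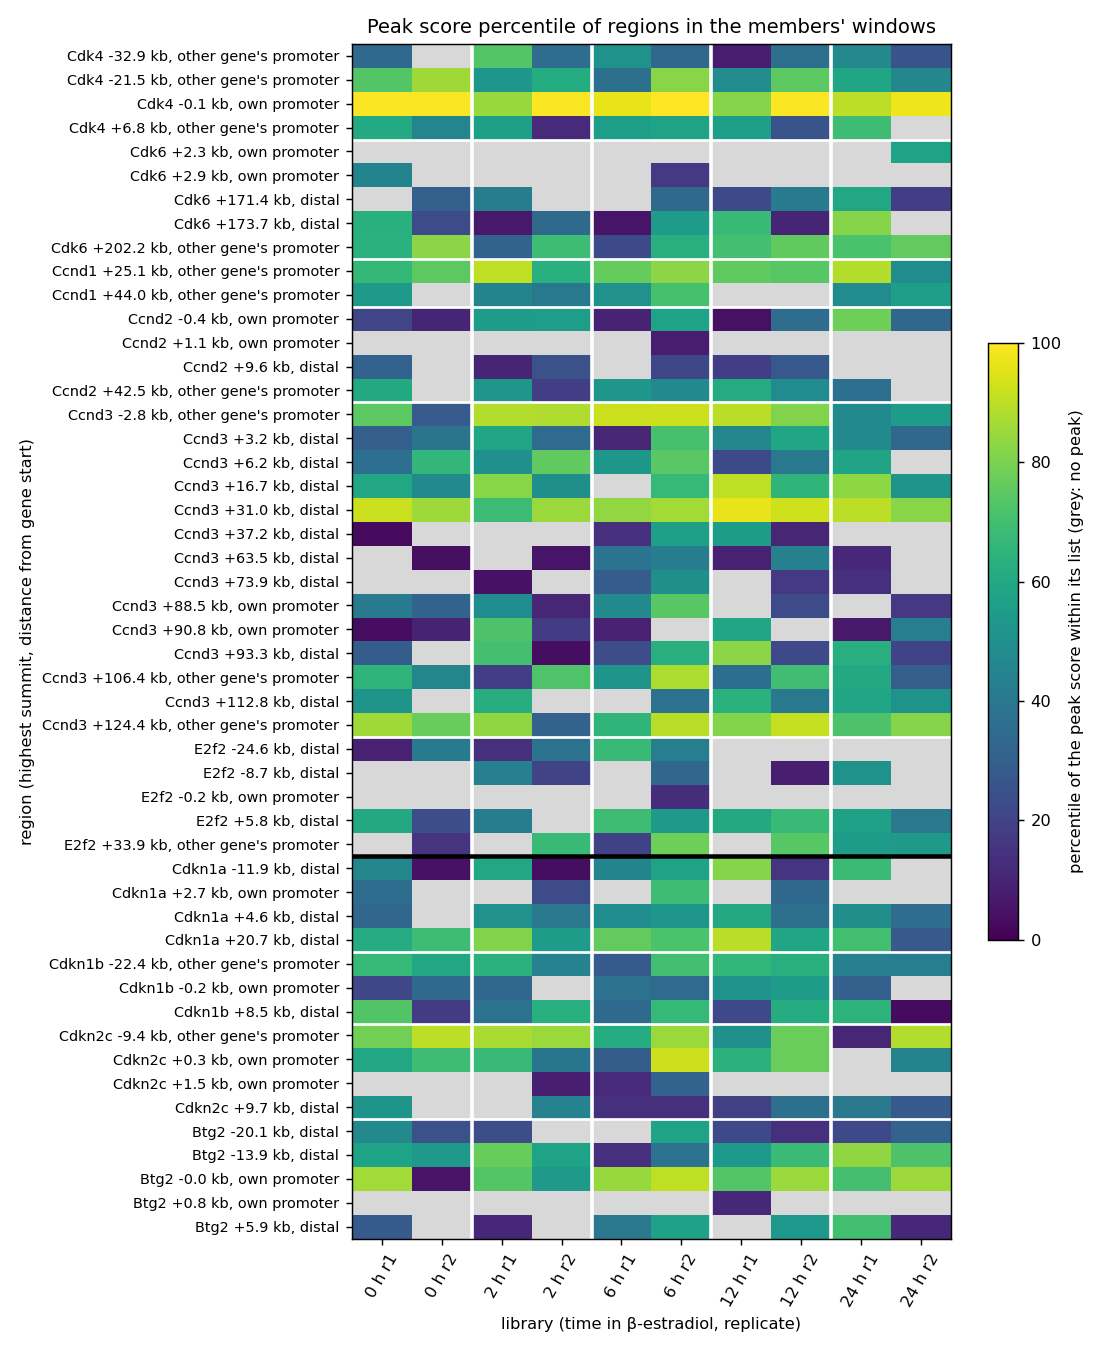
Percentile of the peak score within its list (colour, 0 to 100, grey where no peak was called) for each own-promoter region of the 10 genes and each other region called in at least 5 libraries, by library (columns, r1 and r2 for replicates 1 and 2). The black line divides the 6 drivers (above) from the 4 brakes (below). The Cdk4 promoter is at 81.8 or higher in all columns, and the E2f2 −24.6 kb row is filled up to 6 h and grey at 12 and 24 h.

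Distal regions made up most of the accessible sites, 35 of 55 around the drivers and 17 of 25 around the brakes, as in the series (18956 of 28981). They were called less steadily than promoters in the series as a whole, where 6.54% of distal and 49.8% of promoter regions were in all 10 libraries. Of all distal regions of the series, 39.5% were in 1 list alone. Around the drivers 2 of 35 distal regions (5.71%) were in every list and 11 (31.4%) in 1 list alone. Around the brakes the numbers were 3 (17.6%) and 6 (35.3%) of 17. Their mean number per library was 12.5 ± 4.95 (SD, n = 2) at 0 h and 15 ± 11.3 at 24 h for the drivers and 7 ± 2.83 and 9 ± 2.83 for the brakes, differences smaller than these SDs.

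Ccnd3 had the most distal regions, 14, and 2 of the 5 distal regions seen in every library. The one at +31.0 kb, in an intron, had the highest mean percentile of any distal region of the 10 genes (86.2). Its values were, in time order, 91.9 and 85.4, then 68.4 and 85.0, 83.7 and 86.1, 96.8 and 92.9 and lastly 89.9 and 82.2. Both 12 h libraries were above both 0 h libraries, by less than the spread at 2 h. The other, at +3.2 kb (chr17:47507782-47508636), ranged from 10.7 to 71.1 with no order in time.

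The other distal regions in all libraries belonged to brakes. The Cdkn1a +20.7 kb region, 2.43 kb from the start of the neighbouring gene Rab44, had percentiles, in time order, of 61.4 and 69.0, then 80.9 and 55.1, 75.8 and 71.8, 89.5 and 58.9 and lastly 69.7 and 27.9. Its 6 h libraries were both above both 0 h libraries, and the other times overlapped 0 h. The Btg2 −13.9 kb region (chr1:134092658-134093368) had 58.1 and 54.2, then 76.9 and 58.0, 13.4 and 37.9, 53.5 and 68.1 and lastly 83.5 and 72.0. Both of its 6 h libraries were below, and both 24 h libraries above, both 0 h libraries. The Cdkn1b +8.5 kb region (chr6:134928251-134929113) ranged from 2.80 to 72.8, with both extremes in single libraries of 24 h and 0 h.

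For the remaining genes the distal region with the highest mean percentile was not in every list. At E2f2 it lay in an intron at +5.8 kb (chr4:136177725-136178561) and was called in 9 libraries, from 23.5 to 68.8. At Cdk6 it lay in an intron at +173.7 kb (chr5:3514687-3515467) and was called in 9, from 5.52 to 81.7. At Cdkn2c it lay at +9.7 kb (chr4:109656840-109657851), past the end of the gene, and was called in 8, from 13.5 to 51.7. The Ccnd2 intron region at +9.6 kb (chr6:127142111-127143089) was called in 6 libraries, from 10.3 to 31.3, and in neither 24 h library. The Cdk4 region at +37.1 kb, in an intron of Os9, was called in 4 libraries with a mean percentile of 23.2, and the Ccnd1 region at +31.9 kb in 2 with a mean of 11.5. Cyclin D1 thus had neither a promoter peak nor a distal peak of more than low rank. The higher-ranking regions of its window were the promoters of its neighbours LTO1 (mean percentile 74.1, all 10 libraries) and Fgf15 (52.1, 7 libraries). The Fgf15 region was absent at 0 h replicate 2 and in both 12 h libraries.

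**Figure D2:**
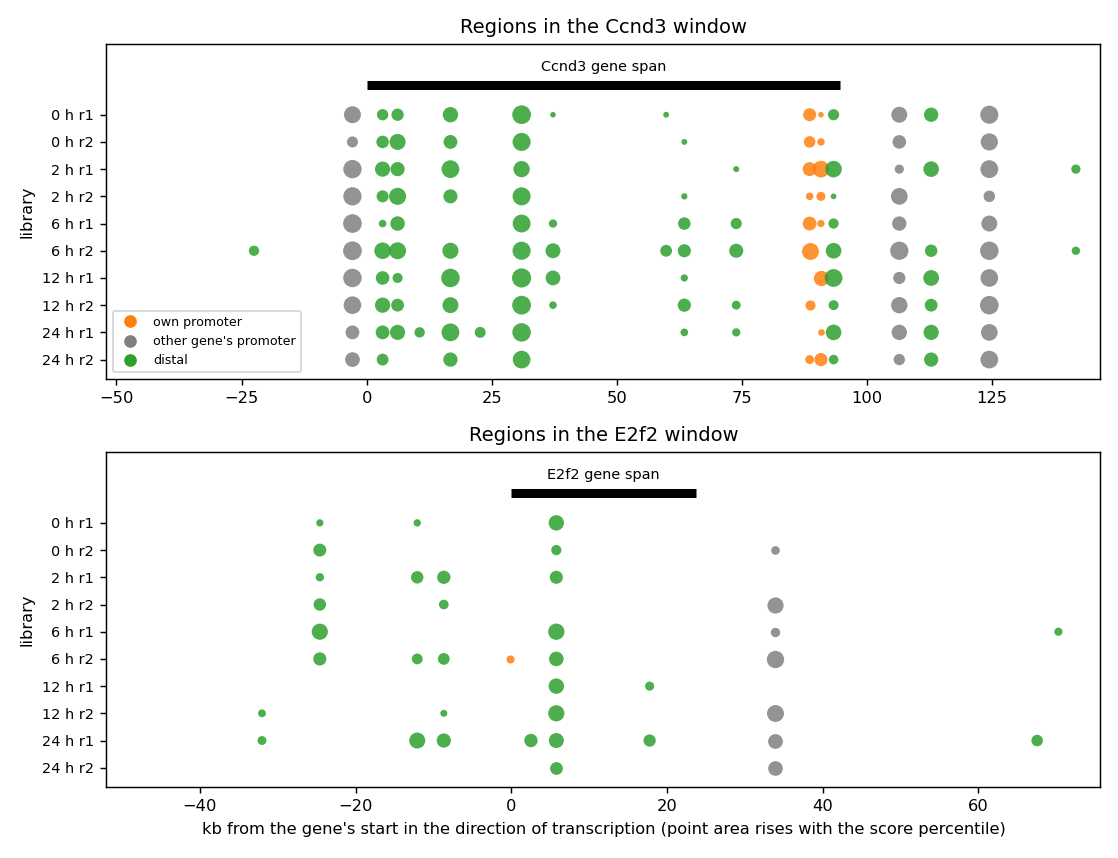
Regions called in the Ccnd3 and E2f2 windows by library (vertical axis) and distance in kb from the gene start (horizontal axis). Point area rises with the percentile within the list, and colour gives own promoter, another gene's promoter or distal. The Ccnd3 +31.0 kb region is filled in all 10 libraries, whereas at E2f2 the −24.6 kb region ends at 6 h and the promoter has a single point, at 6 h replicate 2.

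The next comparison asked which regions appeared or disappeared after GATA1 activation. Gain at a given time required the region in both of its libraries and in neither library of untreated cells, and loss the reverse. At 2 h, 1 of the 80 regions was gained, beside 2.67% of all regions, and none was lost, beside 1.15%. At 6 h, 2 were gained, beside 4.08%, and none was lost, beside 0.759%. At 12 h none was gained, beside 2.47%, and 1 was lost, beside 1.88%. At 24 h none was gained, beside 1.71%, and 1 was lost, beside 3.51%. The 80 regions had 1.25% or 2.5% called wherever any was, below the share over all regions each time, and 2 against 2 libraries cannot give an exact p under 0.333.

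Gained and lost regions fell at 3 genes. The lost region was the same at 12 and 24 h, the E2f2 −24.6 kb region, which lies between genes, 4.30 kb from the start of Id3 (an inhibitor of basic helix-loop-helix factors) and farther from E2f2. Its percentiles were 9.18 and 41.3 before treatment, then 13.9 and 37.5 (2 h) and 67.4 and 42.7 (6 h), and none of the 4 later libraries had it. Its scores, as −log10 q, were 3.27, 5.86, 3.54, 5.64, 7.49 and 6.57 in the 6 libraries up to 6 h, where the lowest score in any list is 1.3. The region therefore ranked highest at 6 h, the last time at which it was called.

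The region gained at 2 h was also at E2f2, at −8.7 kb. It was at percentiles 43.6 and 20.6 at 2 h, 32.9 at 6 h replicate 2, 8.22 at 12 h replicate 2 and 50.9 at 24 h replicate 1, so that after 2 h it was called in 1 library of each time point. The Ccnd3 +73.9 kb region, in an exon of a non-coding Ccnd3 transcript, was gained at 6 h with percentiles of 29.1 and 49.7, and was called in single libraries at 2 h (4.71), 12 h (16.4) and 24 h (13.6). The second Cdkn2c promoter region (chr4:109665417-109666218), beside the later of 2 starts, was gained at 6 h with 12.0 and 31.6 and had been called at 2 h replicate 2 (8.46), but in no library at 12 or 24 h.

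All of these regions had low to middle ranks, and the counts moved with single libraries. With equal lists the E2f2 −24.6 kb, E2f2 −8.7 kb and Cdkn2c calls were not made, while the Ccnd3 call was. Equal lists still gave 2 gained regions at 6 h and 1 lost at 12 h, so other regions took the place of the Cdkn2c and E2f2 ones. Leaving out 1 of the 2 libraries loosens the definition, and without 0 h replicate 1 the gained regions numbered 7, 10, 8 and 7 at 2, 6, 12 and 24 h. Without 0 h replicate 2 the lost regions numbered 5, 3, 8 and 8, and the gained ones 4, 2 and 2 at 6, 12 and 24 h. Without replicate 1 of the later time point there were 2, 12, 6 and 1 gained and 3, 1, 2 and 6 lost at 2, 6, 12 and 24 h. Without its replicate 2 there were 7 gained at 2 h, 2 lost at 6 h, 8 gained and 3 lost at 12 h and 13 gained and 3 lost at 24 h. No share over all regions is given for these looser definitions, so the counts cannot be set against the series.

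Drivers and brakes were then compared by the number of summits in their windows. The driver windows held 32 and 21 summits, then 32 and 26, 28 and 40, 27 and 32 and lastly 37 and 21 in time order. The brake windows held 15 and 10, 17 and 12, 14 and 17, 16 and 16, and 16 and 11. The highest driver count was in the longest list and the lowest counts were in the shortest lists, and the drivers took between 62.8% and 70.2% of these summits in every library. This share is not scaled to the number or length of the windows, which differ between the classes. There are 6 drivers and 4 brakes. The gene spans of Cdk6 and Ccnd3 are 189.5 and 94.6 kb, and those of the brakes run from 3.95 to 9.75 kb. From 0 to 24 h the mean changed by 2.5 summits for the drivers, with a replicate SD of 9.71, and by 1 for the brakes, with a replicate SD of 3.54, so neither difference exceeded the spread between replicates. Within replicate numbers, which were taken to pair the libraries though the labels do not say so, the drivers changed by 5 and 0 summits and the brakes by 1 and 1. With equal lists the changes were 6 and 1 for the drivers and −4 and 3 for the brakes. Distal regions changed by 7 and −2 around the drivers and by 2 and 2 around the brakes. The brakes thus had the same sign in both pairs in the full lists and opposite signs in the summits of equal lists. The driver change was 0.5 summits without E2f2, 0 with gene windows of 25 kb and 7.5 with 100 kb. The means also moved with single libraries. Without 0 h replicate 2 the changes were −3 and −1.5 for drivers and brakes, and without 24 h replicate 1 they were −5.5 and −1.5. Without 0 h replicate 1 they were 8 and 3.5, and without 24 h replicate 2 they were 10.5 and 3.5.

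**Figure D3:**
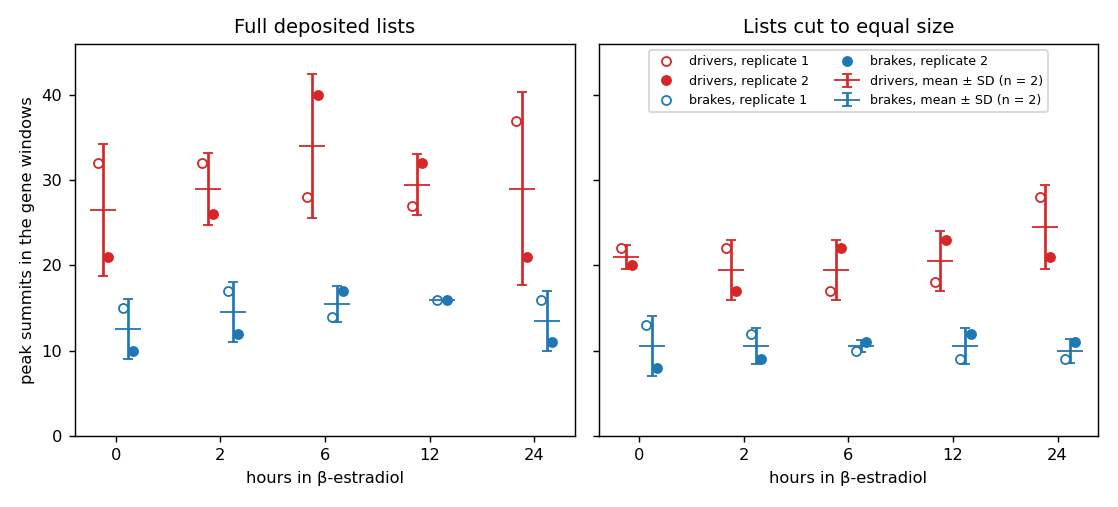
Peak summits in the windows of the 6 drivers (red) and 4 brakes (blue) by hours in β-estradiol, in the full lists (left) and in lists reduced to 10698 peaks each (right). Open and filled points are replicates 1 and 2, and bars give the mean ± SD (n = 2). The ranges of the time points overlap the 0 h range in both sets except for the brakes at 12 h in the full lists, where both libraries have 16 summits.

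Gene by gene, both 6 h libraries had more summits than both 0 h libraries at Cdk4 (5 and 5 against 4 and 3), E2f2 (4 and 6 against 3 and 3) and Cdkn2c (4 and 4 against 3 and 2). This is 3 of 10 genes, beside 15.5% of the 16327 genes with a summit in their window. At 12 h it was Btg2 alone (5 and 5 against 4 and 3), beside 8.95%. At 2 h and 24 h no gene was higher, beside 9.55% and 4.48%. No gene was lower in both libraries at 2, 6, 12 or 24 h, beside 2.19%, 0.79%, 3.07% and 5.13%. With equal lists none of the 4 higher calls was made, and instead Cdk6 was lower at 2, 6 and 12 h and Ccnd3 higher at 12 h. No share over all genes is given for equal lists, so these calls cannot be set against the series.

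Peak scores were compared for the 16 regions in the windows of the 10 genes that were in all 10 lists, 10 around drivers and 6 around brakes. Of these, 6 around drivers and 2 around brakes were promoters of other genes. The comparison used limma on quantile-normalised log2 scores of all 6234 regions in every list. None of the 16 passed an adjusted p of 0.05 (Benjamini-Hochberg) at 2, 6, 12 or 24 h, and neither did any of the 6234, a share of 0% at each time point. At an unadjusted limma p under 0.05 there were 196, 169, 191 and 269 of the 6234 regions and 1, 3, 0 and 1 of the 16. Their median difference from 0 h was −0.05, −0.18, −0.03 and −0.13 on the log2 score scale, beside 0.00 over all regions at each time, and the median SE was 0.44.

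The largest differences, all with an adjusted p of 1 by limma, were at brakes and drivers alike, and those at 5 comparisons of 4 regions had an unadjusted p under 0.05. The Btg2 −13.9 kb region differed at 6 h by −1.08 on the log2 score scale (SE 0.39), while the Btg2 promoter, not among these 5, differed by 1.0 in the other direction (SE 0.53). The Ccnd3 −2.8 kb region, the promoter of the neighbouring gene Taf8, differed by 0.92 at 2 h and 1.08 at 6 h (SE 0.42). The Ccnd2 promoter differed by 1.01 at 24 h (SE 0.44). The Cdk6 +202.2 kb region, the promoter of Fam133b, differed by −1.03 at 6 h (SE 0.44). The Cdk4 promoter differed by −0.68, −0.18, −0.76 and −0.73 at the 4 times (SE 0.55), and the Ccnd3 +31.0 kb region by −0.55, −0.35, 0.35 and −0.10 (SE 0.40). No region of either class was thus shown to change in score. With 2 libraries at each time, 5 differences of about 1 on this scale had an unadjusted limma p under 0.05. None of these passed the adjustment over all tested regions.

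**Figure D4:**
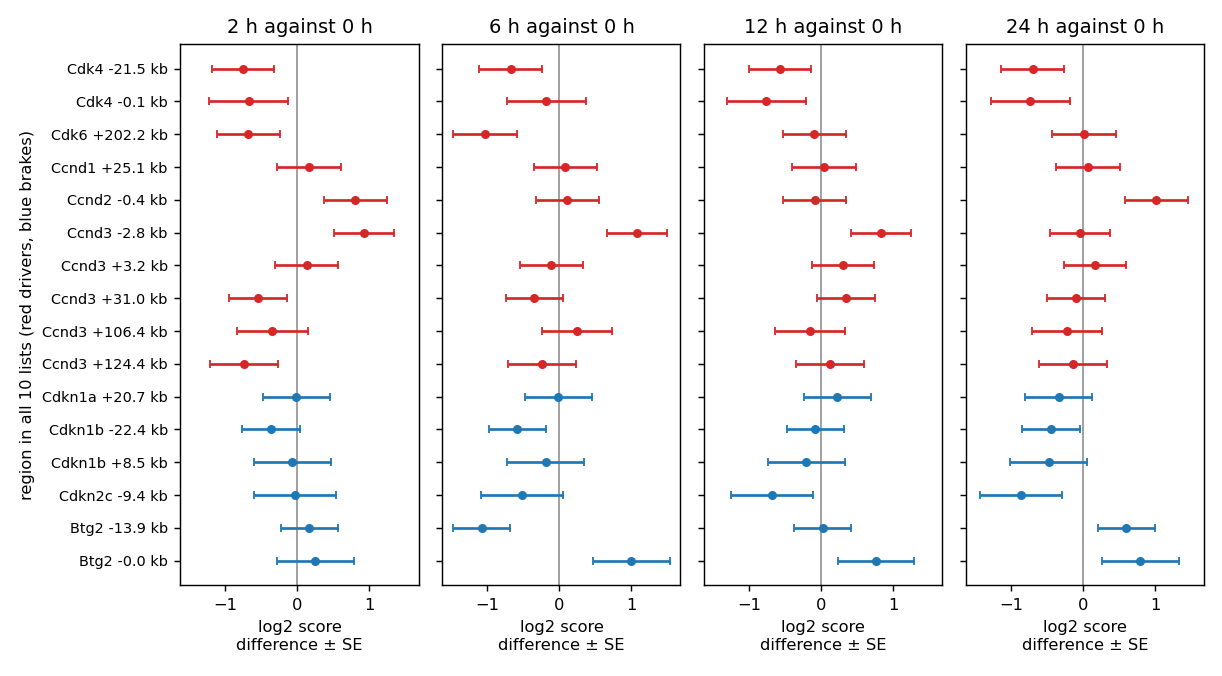
Difference in quantile-normalised log2 score from 0 h at 2, 6, 12 and 24 h, with its limma SE (bars), for the 16 regions present in all 10 lists. Regions in driver windows are red and those in brake windows blue, promoters of other genes included. The values run from −1.08 to 1.08, on both sides of 0 in both classes, and no region passes the adjusted threshold at any time.

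Other genes of the G1/S pathway were counted for context, from a list of 25 with cyclins E and A, Cdk2, the retinoblastoma family, the other E2F factors and their partners, further inhibitors and the BTG family. Of these, 17 (68%) had an own-promoter peak in all 10 libraries, beside the 26.4% of all genes, 5 in some (Cdk2, Rb1, Rbl1, E2f6 and Tfdp1) and 3 in none (Cdkn1c, Cdkn2a and Cdkn2b). Every E2F gene of the list other than E2f6 had its promoter peak in all libraries, where E2f2 had it in 1. Among their 130 regions, 1, 5, 4 and 0 were gained at 2, 6, 12 and 24 h, or 0.769%, 3.85%, 3.08% and 0%, beside 2.67%, 4.08%, 2.47% and 1.71% of all regions. The regions lost numbered 1, 1, 1 and 2, or 0.769%, 0.769%, 0.769% and 1.54%, beside 1.15%, 0.759%, 1.88% and 3.51%, and none of the 42 that were in all lists was called by limma at any time.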

How the data were processed

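The data are 10 ATAC-seq libraries of G1ER cells, and the sample titles gave the time point and replicate number. Adaptor trimming, alignment to mm10 and selection of uniquely placed reads were done by the authors, who called peaks with MACS2 in each library alone. The methods name Bowtie2 and the submitters' processing notes Bowtie 1.0.0 and Picard, and no shift for the Tn5 cut is stated. The deposited lists give 1-bp summits and −log10 of the MACS q-value, with no counts, widths or depth, so no interval that needs depth is given. Sequencing depth and its precision are therefore unknown for every library.

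The 10 genes, the pathway and marker lists and the alternatives were chosen with earlier results of these data known. One marker gene of the lists is not reported here. Summits on chromosomes 1 to 19, X and Y were extended by 250 bp on each side and merged over all lists. A region counted as an own promoter when a summit lay within 1 kb of a GENCODE M21 (GRCm38 patch 6) coding transcript start of the gene, as another promoter when beside a start of another gene, and otherwise as distal. Named regions were every own promoter, every gained or lost region, every distal region in all libraries, and the distal region of each gene with the highest mean percentile. Regions past an unadjusted p of 0.05 and neighbouring promoters were named after their values were seen. The score of the highest summit per region was compared with 0 h by limma 3.58.1 (R 4.3.3, all 10 libraries, time as factor, Benjamini-Hochberg over 6234 regions), tested on simulated data first. Merging was checked with bedtools 2.31.1, and other steps used Python 3.11.15 and pandas 2.3.3. Percentiles, counts and presence have no test. Same-numbered libraries deviated together (r = 0.214 to 0.393 over 10 pairs of time points, across regions), so the numbers were taken to pair the libraries. The replicate block was run as an alternative, beside list size, window sizes, promoter distance, a stricter score, other score scales, missing values and leaving out each library.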

Additional observations from a re-analysis of the deposited data

How the results depend on the processing

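No limma call was made under any alternative, including the replicate block, with which the smallest adjusted p of the 16 regions was 0.812, 0.835, 0.835 and 0.519 at 2, 6, 12 and 24 h and the number of regions called was 0. With equal lists, 0 regions were gained at 2 h and 2 at 24 h, and 1 was lost at 2 h, 1 at 6 h and 0 at 24 h, and 1 gene had an own promoter in all libraries. The equal lists kept the numbers gained at 6 h (2) and lost at 12 h (1), but not all of the same regions. At a score of at least 3, 4 regions were gained at 6 h and 1 at 12 h, and 2 genes had an own promoter in all libraries. Extending summits by 100 bp on each side in place of 250 bp gave 2 lost at 24 h, and by 500 bp 1 gained at 6 h. Gene windows of 100 kb gave 4 gained at 2 h and 4 at 6 h. Leaving out 1 library gave 1 to 7, 2 to 12, 0 to 8 and 0 to 13 gained and 0 to 5, 0 to 3, 1 to 8 and 1 to 8 lost at 2, 6, 12 and 24 h. It gave changes from 0 to 24 h of −5.5 to 10.5 summits for drivers and −1.5 to 3.5 for brakes, and 4 to 5 genes with an own promoter throughout. Why these values moved was not tested, beyond the fewer peaks or libraries that the alternatives use. No share over all regions or genes is given for the alternative counts, so they cannot be set against the series. The brake change was −0.5 with equal lists, 0 at a score of at least 3 and 0.5 with gene windows of 25 or 100 kb, and the driver change was 3.5 with equal lists and 4 at that score. Unknown depth limits every absence.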
